A study of Drosophila melanogaster with 6 samples.

Results

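The 3 genes described here are even-skipped (eve), runt (run) and hairy (hry), the primary pair-rule genes of Drosophila melanogaster, taken by their identifiers CG2328, CG1849 and CG6494 from a table of 9073 listed genes. All 3 were found, and all 3 had reads in every library. The libraries were made from poly(A) RNA of whole embryos of the wild-type stock Oregon R, at the end of the blastoderm stage, just before the ventral furrow forms. Controls were 3 libraries of water-injected embryos. Another 3 libraries carry the label of an injection of both eve and runt dsRNA, each at 1 µg/µl, and are here called dsRNA libraries. The injected embryos came from eggs 0 to 1 h old collected at 25 °C, were aged at 18 °C and were picked by their stage, about 50 per replicate, so each library is a pool of animals. The injected RNA was not restricted to a tissue, and hry was not among its targets.

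Pair-rule genes encode transcription factors, most of which are made in stripes across the trunk of the embryo, one stripe for every other segment. Those called primary, eve, run and hry, read the broad domains of maternal and gap factors through separate enhancers for single stripes or pairs of stripes, and they then position the stripes of the secondary pair-rule genes and of the segment-polarity genes. Eve is a homeodomain protein that acts mainly as a repressor. Runt is the founding member of the Runt-domain (RUNX) family, which activates or represses according to context and binds DNA better with a partner of the CBF-beta type. Hairy is a basic helix-loop-helix repressor that recruits the co-repressor Groucho. Double-stranded RNA injected into an embryo acts through RNA interference, which cuts the matching transcripts.

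Positions are those of the BDGP6 annotation and not of dm3, the build in the submitters' notes. On it run lies on chromosome X (20690670 to 20697321, plus strand), with 3 annotated transcripts whose exons cover 3145 bases. The gene hry lies on chromosome 3L (8675759 to 8679253, plus strand), with 2 transcripts over 2335 exonic bases. The gene eve lies on chromosome 2R (9979319 to 9980795, plus strand), with 1 transcript over 1406 exonic bases. No exon of another gene overlaps those of run or hry. The exons of eve are overlapped on the other strand by the antisense RNA asRNA:CR43948, whose reads cannot be told from those of eve unless the counting used strand.

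Of the 3 genes, run had less transcript in every dsRNA library than in any water library, while eve, a target of the same injection, and hry, which was not a target, had overlapping values. Levels are normalised read counts, that is, reads per gene divided by a size factor of the library. For run, water replicates 1 to 3 gave 3131, 2220 and 3557, and dsRNA replicates 1 to 3 gave 1975, 1922 and 1733. The closest pair of libraries between the groups was thus water replicate 2 and dsRNA replicate 1. The mean of run was 2969 ± 683 in the controls against 1877 ± 127 (SD, n = 3 each), or 0.632-fold. On the log2(normalised count + 1) scale the fold change of run was −0.64 ± 0.18 (SE), with a 95% confidence interval of −1.06 to −0.22 from the limma fit over all genes. It was the 195th lowest of 9073 log2 fold changes. The unadjusted limma p was 0.00921 and the limma adjusted p over all 9073 genes was 0.999, so run did not pass the 0.05 threshold.

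The levels of eve were 2827, 1699 and 3075 in water and 2922, 2727 and 2325 after dsRNA. The lowest value of the 6 was that of water replicate 2, and the highest was that of water replicate 3, so the dsRNA libraries lay inside the range of the controls. The means of eve were 2534 ± 734 and 2658 ± 304 (SD, n = 3 each), with a log2 fold change of 0.11 ± 0.23 (SE; 95% confidence interval −0.44 to 0.66; limma adjusted p = 0.999). The lower end of this interval lies above the estimate for run, but the intervals of eve and run (−1.06 to −0.22) overlap. With all 6 libraries eve, although a target by the labels, was not lower in the libraries so labelled. Without water replicate 2 its log2 fold change was −0.16 ± 0.11 (SE).

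The untargeted gene hry had 2821, 1562 and 3511 in the controls, and 3193, 2527 and 2549 after dsRNA. As with eve, water replicate 2 was the lowest and water replicate 3 the highest of the 6 libraries. Its means were 2631 ± 988 and 2756 ± 378 (SD, n = 3 each), with a log2 fold change of 0.14 ± 0.29 (SE; 95% confidence interval −0.56 to 0.83; limma adjusted p = 0.999). Of all 9073 genes 1 passed the limma threshold in either direction (0.0110%), and 0 passed with a fall (0%); with limma-voom on the recovered reads the total was also 1. An unadjusted limma p under 0.05 was found for 206 genes (2.27%), run among them. The groups did not overlap with lower values after dsRNA for 305 genes (3.36%), of which run is 1, and with higher values for 271 genes (2.99%).

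**Figure D1:**
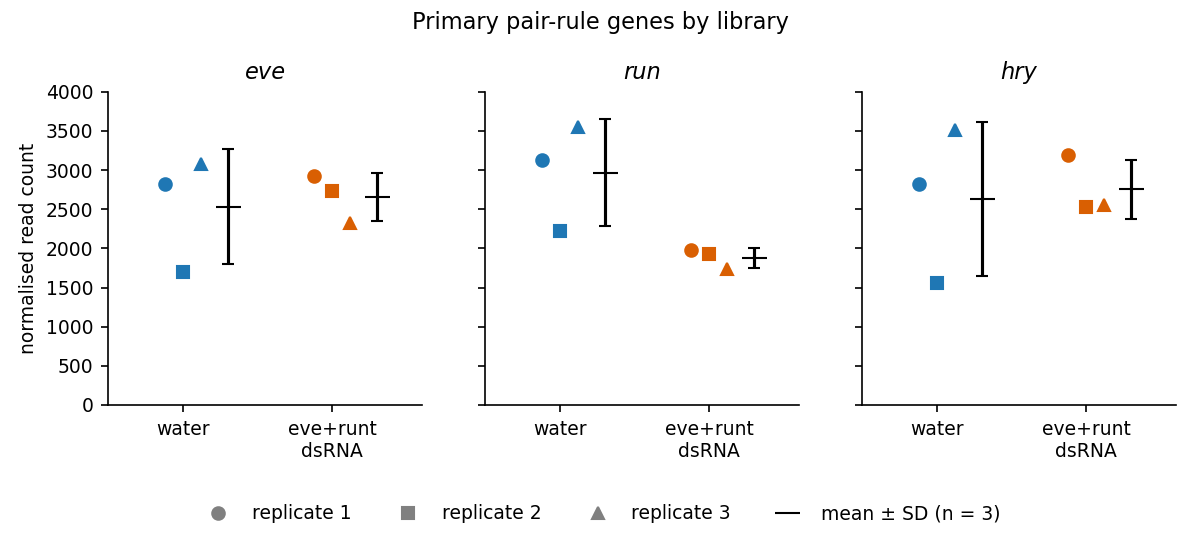
Normalised read counts (vertical axis, from 0) of eve, run and hry in each library, with water in blue, dsRNA in orange, marker shapes for replicate numbers and black bars for the mean ± SD of 3 libraries. The dsRNA libraries of run lie between 1733 and 1975, below all water libraries, whereas those of eve and hry lie within the range of the water libraries.

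All 3 genes varied more between the water libraries than most genes of like level. The coefficient of variation in water was 29.0% for eve, 23.0% for run and 37.5% for hry, against 11.4%, 6.79% and 13.7% after dsRNA. Counting error was far below this: the genes took 1214 to 4684 reads per library, for a counting coefficient of variation of 1.46% to 2.87%. Among genes with a mean of 1000 to 10000 normalised counts, the SD of the log2 level in water lay at the 93.3 percentile for eve, the 87.8 percentile for run and the 96.2 percentile for hry. After dsRNA the same measure lay at the 78.2, 55.2 and 81.7 percentiles.

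Water replicate 2 set much of that spread. It held 0.576 of the mean of the other water libraries for eve, 0.664 for run and 0.493 for hry. The library stood apart in the whole table as well, with a score of 60.6 on the first principal component against −27.7 to 5.61 in the others (54.7% of the variance). Over all 9073 genes, 42.6% were higher in that library than in both other water libraries and 42.7% were lower. The stage markers of water replicate 2 moved as well. All 10 measured maternally loaded RNAs were higher there than in both other water libraries, and their summed level was 106963 against 66840 and 67592 in those and 58908 to 81514 after dsRNA. Of the 12 genes of gastrulation and later 11 were lower, with a summed level of 745 against 1797 and 2532, and 1269 to 2328 after dsRNA. Of the 6 measured cellularisation genes 5 were lower, with a summed level of 194783 against 257631 and 261896, and 214508 to 342974 after dsRNA. All 4 measured pole-cell markers were higher there, at a summed 9641 against 5745 and 6052, and 4740 to 6655 after dsRNA, and these share gcl and osk with the maternal list. No marker of these lists was at 0 in any library, and the part of stage in the levels of the 3 genes was not tested.

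Without water replicate 2, run stood at −0.83 ± 0.10 (log2, SE; limma adjusted p = 0.0521 over 9073 genes), a 0.561-fold level. In the same fit eve turned to −0.16 ± 0.11 and hry to −0.20 ± 0.14 (log2, SE; limma adjusted p = 0.891 for both). The direction of eve and hry thus rests on that library, while run was lower on leaving out any library (log2 −0.83 to −0.49).

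**Figure D2:**
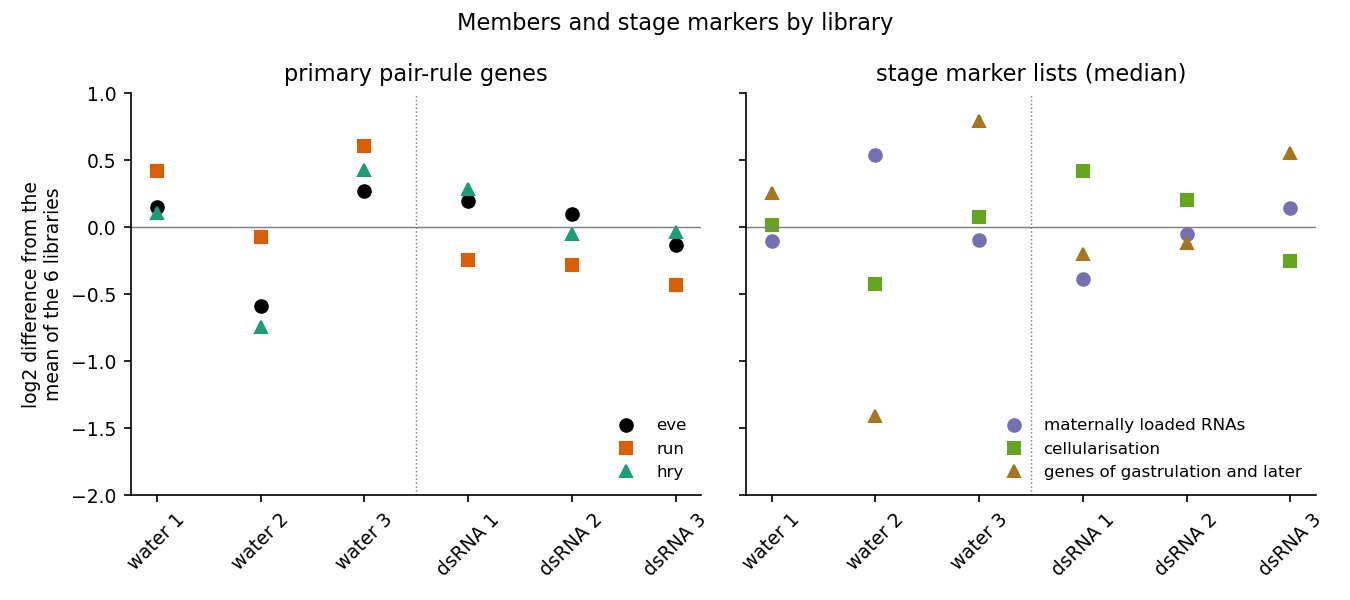
Log2 difference of each library from the mean of the 6 libraries (vertical axis), for eve, run and hry on the left and as the median of 3 stage marker lists on the right. In water replicate 2 eve and hry lie at −0.58 and −0.74 and the genes of gastrulation and later at −1.41. There run lies at −0.07, and at −0.24 to −0.43 in the dsRNA libraries, which lower its mean. Against the mean log2 level of water replicates 1 and 3, water replicate 2 was at −0.59 for run, −0.80 for eve and −1.01 for hry.

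Ratios between the genes within a library do not depend on the scaling between libraries, and they separated the groups for run. The ratio of run to eve was 1.11, 1.31 and 1.16 in the water libraries, in the order of their numbers, and 0.676, 0.705 and 0.745 in those after dsRNA. Water replicate 2 was here the highest of the controls and not the one nearest to the dsRNA libraries. The lowest bound of the 95% Clopper-Pearson intervals in water was 1.06 and the highest bound after dsRNA was 0.803, with counting error alone in these bounds. The mean ratio was 1.19 ± 0.10 in the controls against 0.709 ± 0.035 (SD, n = 3 each). The mean log2 ratio differed by −0.75, a 0.596-fold ratio, with p = 0.1 by a two-sided exact permutation test, which is the smallest p that 3 against 3 libraries allow.

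The ratio of run to hry gave a like picture against a gene that was not injected. It was 1.11, 1.42 and 1.01 in water and 0.619, 0.761 and 0.680 after dsRNA, so that the groups did not overlap. The means were 1.18 ± 0.21 and 0.686 ± 0.071 (SD, n = 3 each), with a difference in mean log2 ratio of −0.77 (0.585-fold; two-sided exact permutation p = 0.1, the smallest possible). Both ratios have run in common, so they are not separate evidence. Over the whole table the ratio to eve was lower, with no overlap between groups, for 1.05% of the other 9072 genes, and the ratio to hry for 1.05% as well. The ratio to run was higher in all dsRNA libraries for 50.1% of the other genes.

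The ratio of eve to hry did not separate the groups. It was 1.00, 1.09 and 0.876 in water and 0.915, 1.08 and 0.912 after dsRNA, with means of 0.988 ± 0.106 and 0.969 ± 0.096 (SD, n = 3 each). The mean log2 ratio differed by −0.03 (two-sided exact permutation p = 0.9), and its sign turned on leaving out single libraries (−0.11 to 0.04). In water its log2 SD was 0.16, while the log2 SDs of eve and hry themselves were 0.46 and 0.60: the low values of water replicate 2 were shared by the pair and largely cancelled in the ratio.

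**Figure D3:**
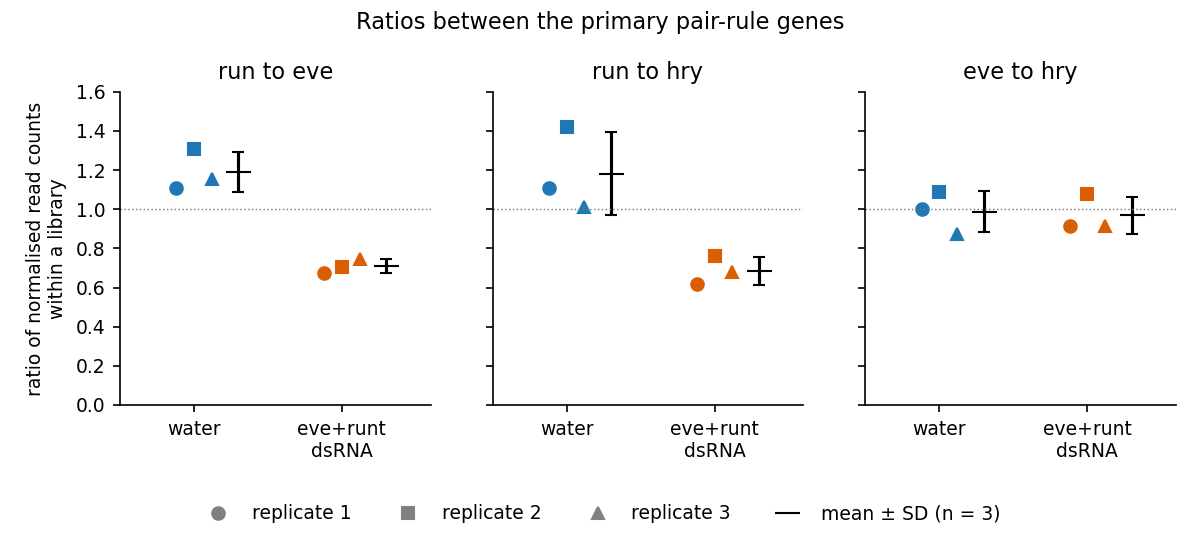
Ratio of normalised read counts within each library (vertical axis, from 0) for run to eve, run to hry and eve to hry, with water in blue, dsRNA in orange, marker shapes for replicate numbers and black bars for the mean ± SD of 3 libraries. Both ratios with run lie above 1 in all water libraries and at or below 0.761 in all dsRNA libraries, and the eve to hry ratios overlap.

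The replicate numbers are shared between the groups, and libraries of the same number deviated together across all genes. Within numbers 1, 2 and 3 the dsRNA library held 0.631, 0.866 and 0.487 of the run level of its water partner. The same quotients for eve were 1.03, 1.61 and 0.756, and those for hry were 1.13, 1.62 and 0.726. So run was lower in each of the pairs, and eve and hry were higher in pairs 1 and 2 and lower in pair 3. For the ratio of run to eve the quotients were 0.611, 0.539 and 0.644, and for run to hry 0.557, 0.535 and 0.671, a narrower range than that of the run level itself. With the replicate number as a block the log2 fold change of run was −0.64 ± 0.17 (SE; limma adjusted p = 0.898), and 0 of 9073 genes passed, with 348 at an unadjusted limma p under 0.05.

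Levels can be set side by side between the genes only per length, here as normalised counts per 1000 exonic bases of the BDGP6 annotation. On that scale eve was the highest of the 3 genes in all 6 libraries, with 1802 ± 522 in water against 1890 ± 216 in the dsRNA group (SD, n = 3 each). Next came hry at 1127 ± 423 and 1180 ± 162, and run at 944 ± 217 and 597 ± 40.5. In water the levels of hry and run did not differ beyond their spread, since run was above hry in replicate 2, and after dsRNA hry was above run in 3 of 3 libraries. Among 8974 genes with a length, eve ranked 1792nd in water and 1720th after dsRNA, hry 2577th and 2482nd, and run 2857th and 3388th.

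As a share of the summed level per length of the 3 genes, run made up 23.6%, 27.3% and 23.5% in water and 15.4%, 16.8% and 16.7% after dsRNA. The share of eve was 45.4% to 47.7% in water and 50.2% to 53.4% after dsRNA, and that of hry was 25.9% to 31.2% and 29.8% to 33.6%. The 3 shares add up to the whole, so a lower share of run goes with higher shares of the others without any change in their levels. In reads, run took 40.5% of the 3 genes' reads in water replicate 2 (95% Clopper-Pearson interval 39.0% to 42.0%) and 26.8% in dsRNA replicate 2 (25.7% to 27.9%).

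The 6 other pair-rule genes are patterned in part by Eve, Runt and Hairy. None passed the limma threshold in either direction (0 of 6, against 0.0110% of all genes). None had groups without overlap, against 2.99% of all genes higher and 3.36% lower after dsRNA. The median log2 fold change of the 6 was 0.06 against −0.0015 over all 9073 genes. The homeobox gene ftz had means of 3613 ± 1372 and 2053 ± 80.2 in water and dsRNA libraries (log2 −0.73 ± 0.30, SE). The zinc-finger gene odd stood at 2588 ± 1139 and 1822 ± 280 (log2 −0.41 ± 0.34), and the zinc-finger gene opa at 3039 ± 2346 and 2307 ± 697 (log2 0.08 ± 0.81). For opa the mean count was lower after dsRNA while the mean log2 level was higher, since water replicate 2 held 539 against 3385 and 5192 in the other water libraries. The paired-domain gene prd stood at 1500 ± 612 and 2201 ± 677 (log2 0.61 ± 0.38), and the forkhead genes slp1 and slp2 had log2 fold changes of 0.05 ± 0.17 and 0.12 ± 0.39. Without water replicate 2 the median of the 6 was −0.57 (over all genes −0.026), and ftz passed (log2 −1.10 ± 0.08, limma adjusted p = 0.00335). Over all 9073 genes, 3 passed with a rise and 1 with a fall in that fit. In the same fit opa turned to −0.91 ± 0.28, slp1 to −0.13 ± 0.10 and slp2 to −0.34 ± 0.17, and odd stood at −0.81 ± 0.16 and prd at 0.20 ± 0.24 (log2, SE). In that library all 6, like eve, run and hry, had their lowest water value. The exons of prd are overlapped on the other strand by asRNA:CR44592.

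Set against each of the 8 other pair-rule genes in turn, run was lower without overlap between the groups for 5 of them, namely eve, hry, prd, slp1 and slp2. The same held against 50.1% of all other genes, so this count is not particular to the pair-rule genes. The ratios of run to ftz, odd and opa overlapped between the groups. The ratio of run to ftz was 0.717 to 1.09 in water and 0.842 to 0.975 after dsRNA, a difference in mean log2 ratio of 0.09. The ratio of run to slp1 was 1.45 to 1.64 in water and 0.787 to 1.08 after dsRNA. For eve and for hry the groups were apart against the same references, run, ftz and odd, with higher ratios after dsRNA, where 1.05% of all other genes serve as such a reference for either. The ratio of eve to ftz was 0.648 to 0.837 in water and 1.13 to 1.38 after dsRNA, and that of hry to ftz was 0.646 to 0.790 and 1.24 to 1.498.

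**Figure D4:**
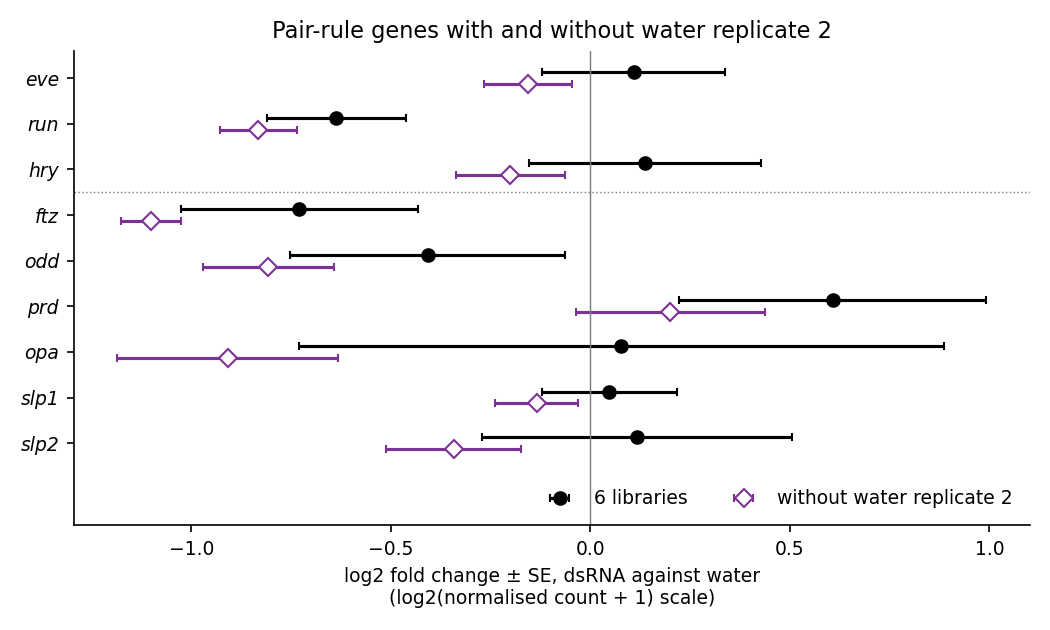
Log2 fold changes ± SE of dsRNA against water (horizontal axis, log2(normalised count + 1) scale) of the 9 pair-rule genes, with eve, run and hry above the dotted line, from all 6 libraries (filled circles) and without water replicate 2 (open diamonds). All 9 values are lower without that library, and run goes from −0.64 to −0.83 and ftz from −0.73 to −1.10.

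The genes whose pattern over the 6 libraries was most like that of each member were found by Pearson's r of the log2 levels among 6227 other genes with a mean of at least 100 normalised counts. For eve these were CG13454 (r = 0.997), Coop (0.995), Dcp-1 (0.990), Caf1-105 (0.989) and Atg8a (0.989). For hry they were KP78b, CG3253, PNUTS, Ccdc85 and Ndfip, with r between 0.996 and 0.998. For run they were drk (0.955), Nedd8 (0.953), the pair-rule gene ftz (0.951), Dbp21E2 (0.949) and Vps28 (0.948). Pearson's r takes no account of the size of a change. Against −0.64 for run, the log2 fold changes were −0.13 for drk, −0.08 for Nedd8, −0.73 for ftz, −0.15 for Dbp21E2 and −0.15 for Vps28. Between the members, r was 0.963 for eve and hry, 0.380 for eve and run and 0.374 for run and hry. These values describe 6 libraries that share the outlying water replicate 2. Without it 1 of the 5 genes named for eve, 1 of the 5 for run and 3 of the 5 for hry were again among the 5 most alike, and r was 0.810 for eve and hry, 0.703 for eve and run and 0.657 for run and hry.

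Upstream of the stripes stand 11 maternal, gap and general activators. None passed the limma threshold. None had groups without overlap, against 2.99% of all genes higher and 3.36% lower after dsRNA. The median log2 fold change was 0.20, with 9 of 11 positive against 49.5% of all genes. The gap gene kni, which encodes a nuclear-receptor-like repressor, had 4391 ± 772 and 5792 ± 1153 (log2 0.40 ± 0.19, SE). The terminal gap gene tll stood at 4333 ± 404 and 5512 ± 1179 (log2 0.33 ± 0.16). At the other end were the maternal anterior determinant bcd (log2 −0.21 ± 0.24) and zld (log2 −0.04 ± 0.09), the activator of the first zygotic genes. Without water replicate 2 the median was 0.12.

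Downstream, 5 of 6 listed segment-polarity genes were measured, none passed, and the median was 0.23, or −0.27 without water replicate 2. The gene of the ligand Hedgehog, hh, was higher in all dsRNA libraries, as were 2.99% of all genes. Its levels were 65.9 ± 38.6 in water against 145 ± 21.3 (log2 1.29 ± 0.44, limma adjusted p = 0.999). The homeobox gene en stood at 133 ± 52.3 and 114.6 ± 22.6 (log2 −0.15 ± 0.34), the Wnt ligand gene wg at 356 ± 101 and 335 ± 110 (log2 −0.09 ± 0.31), and the paired-domain gene gsb at 64.7 ± 49.5 and 108 ± 106 (log2 0.87 ± 1.12). Without water replicate 2 gsb turned to −0.27 ± 0.74 and hh stood at 0.84 ± 0.29 (log2, SE).

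The proteins that work with the members include the CBF-beta-type partners of Runt, Bro and Bgb, the co-repressor Groucho (gro) and CtBP. Of 9 such co-factors and general repressors none passed, and the median was 0.04. Bro stood at 7114 ± 688 and 7697 ± 488 (log2 0.12 ± 0.09, SE) and Bgb at 4043 ± 56.6 and 4336 ± 183 (log2 0.10 ± 0.06). Bgb was higher in all dsRNA libraries, as were 2.99% of all genes. The lowest were ttk, a zinc-finger repressor of early pair-rule expression (log2 −0.59 ± 0.39), and Sin3A, a scaffold of histone deacetylase complexes (log2 −0.16 ± 0.11).

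Of 8 listed relatives of Runt and Hairy, 5 were measured, and none of these passed the limma threshold. Given here are lz, RunxA, dpn and cwo. The Runt-domain genes lz and RunxA had few reads. For lz there were 14.6 ± 6.66 and 24.0 ± 8.90 normalised counts (log2 0.72 ± 0.49), and for RunxA 5.39 ± 1.42 and 4.18 ± 2.55 (log2 −0.42 ± 0.52). Among the Hairy-family repressors, dpn stood at 3957 ± 357 and 6210 ± 509 and was higher in all dsRNA libraries (log2 0.65 ± 0.09, limma adjusted p = 0.514). Such a rise without overlap between the groups was found for 2.99% of all genes. The gene cwo, a repressor known from the circadian clock, stood at 323 ± 101 and 247 ± 47.8 (log2 −0.36 ± 0.27).

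Among the stage and pole-cell markers none passed in either direction with all 6 libraries. The highest and lowest log2 fold changes (± SE) of the maternal list were those of exu (0.23 ± 0.18), twe (0.15 ± 0.14), gnu (−0.69 ± 0.34) and swa (−0.52 ± 0.33), with a median of −0.17. Without water replicate 2 this median turned to 0.03, with exu at 0.38, twe at 0.30, gnu at −0.36 and swa at −0.20. Those of the cellularisation list were nullo (0.81 ± 0.12), bnk (0.27 ± 0.15), trbl (0.23 ± 0.23) and Sry-alpha (0.15 ± 0.22). In this list 6 of 6 were positive, against 49.5% of all genes, with a median of 0.24. Without water replicate 2 that median was 0.07, with 1 of 6 negative, and nullo passed (log2 0.93 ± 0.09, limma adjusted p = 0.0293). It was 1 of 3 genes, among 9073, that passed with a rise in that fit. In the list of gastrulation and later, sim (−0.73 ± 0.82) and mid (−0.70 ± 0.45) were the lowest and hh and gsb, which it shares with the segment-polarity list, the highest. The median of that list was 0.09, and it turned to −0.41, with 9 of 12 negative, without water replicate 2. The pole-cell markers pgc, vas, gcl and osk had −0.09 ± 0.11, −0.25 ± 0.30, −0.45 ± 0.27 and 0.10 ± 0.22, and their median turned from −0.17 to 0.04 without that library. In pools of whole embryos, fewer cells with a transcript and less of it per cell cannot be told apart.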

How the data were processed

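Poly(A) RNA-seq libraries, 3 of water-injected and 3 of eve+runt dsRNA-injected embryos, were grouped by their sample titles. Per the submitters' processing notes, dm3 was the build and the tools were HTSeq, DESeq, Bowtie2 and TopHat2 (2.0.9), with no order or settings. The table deposited holds 1 normalised signal for each gene: each value minus 1 was a whole multiple of 1 step per library (100% of values within 0.01 read), so the authors divided read counts by a library factor and added 1. Gene reads recovered in this way were 23234425 to 49364110 per library. The 3 rows that name no gene held 12.4% to 14.8% (non-unique), 0.72% to 0.75% (ambiguous) and 4.32% to 4.91% (no feature) of reads and were left out. There were 0 columns of other samples.

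Levels were tested as log2(normalised count + 1) by the robust limma-trend method (limma 3.58.1, R 4.3.3, minimum mean of 1) over 9073 genes. The adjustment was that of Benjamini-Hochberg, with a threshold of 0.05. The fit was also tried on simulated counts with no outlying library and no replicate pairs, so those features of the data were not covered. Ratios were tested by exact permutation. Names came from a RefSeq table of Release 6 plus ISO1 MT (8987 of 9073 matched) and lengths from the BDGP6 annotation. The genes named were the members, all other pair-rule genes, the highest 2 and lowest 2 fold changes of each other list, and the 5 genes most correlated with each member; the members and lists were chosen with earlier results of these data known. Alternatives were other scalings, a pseudocount of 10, a minimum of 5 CPM (reads scaled to a common total), limma-voom, a replicate block and leaving out each library.

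Chi-square values of replicate pairs were 16.5 to 87.7 per degree of freedom, so none was a copy. Deviations of same-numbered libraries from their group means correlated across genes at 0.243, 0.367 and 0.224, and other pairs at −0.383 to 0.11; the labels give no shared day. Nothing in the labels says that replicates were separate injections, so the p-values here reflect only how these samples vary, which may be technical. The Clopper-Pearson intervals cover counting error only, while the confidence intervals of the fold changes rest on the limma SE between libraries.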

Additional observations from a re-analysis of the deposited data

How the results depend on the processing

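The log2 fold changes of run (−0.65 to −0.60), eve (0.09 to 0.14) and hry (0.12 to 0.17) kept their direction and their side of the threshold under upper-quartile scaling, scaling to total gene reads, a pseudocount of 10, a minimum of 5 CPM, limma-voom and the replicate block, under which run stood at −0.64 (limma adjusted p = 0.898). On leaving out each library in turn, run ranged from −0.83 to −0.49, eve from −0.16 to 0.27 and hry from −0.20 to 0.38, and the negative values of eve and hry were those without water replicate 2. The log2 ratio of run to eve ranged from −0.80 to −0.68 and that of run to hry from −0.88 to −0.63. That of eve to hry ranged from −0.11 to 0.04 and turned positive when water replicate 2 (0.044), dsRNA replicate 1 (0.011) or dsRNA replicate 3 (0.013) was left out. The number of genes past the limma threshold was 2 with scaling to total gene reads, 0 with the replicate block and 0 to 4 on leaving out a library; the cause was not tested. The single call, on noc, was lost with the block. For both ratios with run the block gave a two-sided exact sign-flip p of 0.25, the smallest that 3 pairs allow. The regions covered by the dsRNAs were not analysed here, and reads per gene do not separate injected RNA from that of the embryo or measure protein.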
